A study of Homo sapiens and Mus musculus with 56 samples.

Results

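The phagocyte NADPH oxidase was followed here through 5 of its genes, CYBB, CYBA, NCF1, NCF4 and RAC2, out of 21357 genes annotated on the human array and 19324 on the mouse array. Members were every probe set, a group of short probes read as a single value, whose annotation held one of these symbols. That gave 12 human and 10 mouse probe sets. RS4;11 and SEM are human B-precursor leukaemia lines that carry the fusion KMT2A-AFF1, while REH, of the same lineage, lacks any KMT2A fusion. These 3 lines received 3 µM EPZ004777 with 10 µM MI-2-2, 3 µM EPZ004777, 10 µM MI-2-2 or DMSO for 6 days. MOLM-13, derived from a human acute myeloid leukaemia that has KMT2A-MLLT3, and a primary culture of mouse leukaemic cells transformed by MLL-AF9 and kept in human IL-6, mouse IL-3 and SCF, received 3 µM of each compound together, 3 µM EPZ004777, 3 µM MI-2-2 or DMSO for 4 days. EPZ004777 inhibits the histone methyltransferase DOT1L and MI-2-2 inhibits menin, a protein that KMT2A fusions need to bind chromatin. The combination was taken to hold each compound at its single dose. Each group had 3 arrays except RS4;11 DMSO and the SEM combination, MI-2-2 and DMSO groups, which had 2 each, and precision is limited by these small numbers. Each model is a single line or culture, so the spread between arrays is that of replicate cultures as the design text describes them.

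The phagocyte oxidase is the enzyme with which neutrophils and macrophages make superoxide to kill microbes. CYBB (gp91phox) is its catalytic membrane subunit and CYBA (p22phox) is the partner that stabilises it. NCF1 (p47phox) and NCF4 (p40phox) wait in the cytosol and move to the membrane on activation, NCF1 as the organiser that docks on CYBA and NCF4 as a subunit that binds phosphatidylinositol 3-phosphate. RAC2, a small GTPase of blood cells, completes the active complex. CYBB, NCF1 and NCF4 are known targets of the transcription factor PU.1 (gene SPI1), CYBB is switched on late in myeloid maturation, and loss of CYBB causes chronic granulomatous disease. B cells are known to carry a low level of the complex.

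Promoter sequences show where the best known motifs of these genes lie, and are the 150 bases before the gene start in RefSeq on GRCh38.p14, 5′ to 3′ on the gene's own strand, at chrX:37779909-37780058 (+) for CYBB, chr7:74773861-74774010 (+) for NCF1 and chr16:88651054-88651203 (−) for CYBA.
CYBB: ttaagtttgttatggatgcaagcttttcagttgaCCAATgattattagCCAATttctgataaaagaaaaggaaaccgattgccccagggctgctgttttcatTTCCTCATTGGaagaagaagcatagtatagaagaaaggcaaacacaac
NCF1: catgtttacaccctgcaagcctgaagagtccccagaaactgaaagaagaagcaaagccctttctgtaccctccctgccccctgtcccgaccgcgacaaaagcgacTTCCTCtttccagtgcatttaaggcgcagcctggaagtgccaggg
CYBA: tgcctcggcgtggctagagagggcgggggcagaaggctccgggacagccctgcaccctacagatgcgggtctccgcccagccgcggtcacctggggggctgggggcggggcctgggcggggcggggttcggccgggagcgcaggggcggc
Capitals mark GAGGAA, the core of PU.1 sites, and CCAAT, the CCAAT box, both searched on both strands (TTCCTC and ATTGG when reversed). In CYBB a reversed PU.1 core lay 48 to 43 bases before the start, with CCAAT at 116 to 112 and at 102 to 98 and a reversed CCAAT at 42 to 38, which directly adjoins the PU.1 core. In NCF1 a reversed PU.1 core lay 45 to 40 bases before the start. CYBA held neither in this window. Of 35116 promoters in the same table, 14.8% held GAGGAA and 23.5% held CCAAT in the same 150 bases on either strand. NCF4 and RAC2 are named only.

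All values are log2 signals that the authors made with RMA, and a change is a difference of group means on that scale. Each model was fitted with limma over all probe sets that exceeded percentile 40 on 2 or more of its arrays, and "called" means an adjusted p under 0.05. Changes are given ± standard error. Array medians lay between 5.54 and 5.66 in RS4;11, SEM and REH and between 6.18 and 6.25 in MOLM-13, so levels in MOLM-13 are set beside those of the other lines without a test. Several arrays stood apart. REH DMSO replicates 1 and 3 correlated with their group at 0.984 at the lowest, and the mouse combination arrays split, with replicates 2 and 3 correlated at 0.993 with each other and at 0.963 and 0.962 with replicate 1. The mouse count after the combination given below was 10 with and without these arrays, and the REH count after it was 1 with REH DMSO replicates 1 and 3 and 0 without them. The 3′ minus 5′ difference of the actin controls, a measure of RNA quality, was 1.12 and 1.99 on mouse combination replicates 2 and 3, 0.48 on replicate 1 and 0.38 to 0.63 on the other mouse arrays. It was 1.83 to 1.93 on the SEM combination and MI-2-2 arrays and 2.32 to 2.48 on the SEM EPZ004777 and DMSO arrays. REH DMSO replicates 1 and 3 had the highest values of all arrays, 3.11 and 3.65, against 2.36 to 2.87 on the other REH arrays. Cell type markers went with the labels. Of 11 myeloid marker genes, 10 were above percentile 40 on all DMSO arrays of MOLM-13, 4 in RS4;11, 4 in SEM and 2 in REH, and of 10 in the mouse cells all 10 were. Of 9 B-precursor markers, 9 were in RS4;11, 9 in SEM, 8 in REH, 5 in MOLM-13 and 3 in the mouse culture.

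Before treatment the 3 B-precursor lines differed in CYBB, NCF1 and a second RAC2 probe set. The CYBB lead probe set (203923_s_at, the one with the highest mean over the human arrays, as for each lead below) read 4.93 and 4.93 on the RS4;11 DMSO arrays, 4.95 and 4.86 on those of SEM and 8.77, 8.75 and 8.80 on those of REH. RS4;11 and SEM therefore lay at percentile 39.6 to 41.0 of their arrays, against percentile 78.0 to 78.4 in REH, which has no KMT2A fusion. Of 11 oxidase probe sets tested, 5 were higher and 2 lower in RS4;11 than in REH (37.9% of all probe sets were called), 4 higher and 2 lower in SEM than in REH (40.1%), and none higher and 2 lower in RS4;11 than in SEM (17.2%). CYBB in RS4;11 was lower than in REH by a difference of -3.85 ± 0.12 (adjusted p = 1.29e-08), and in SEM by -3.87 ± 0.12 (adjusted p = 7.94e-09), while RS4;11 minus SEM was 0.02 ± 0.13 (95% interval -0.26 to 0.31). Without REH DMSO replicates 1 and 3 the 2 differences from REH were -3.82 and -3.85.

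NCF1 had the opposite order. Its lead (204961_s_at) read 8.65 and 8.68 in RS4;11, 9.26 and 9.22 in SEM and 7.58, 7.69 and 7.79 in REH. RS4;11 was higher than REH by 0.98 ± 0.10 (adjusted p = 5.87e-05), SEM higher than REH by 1.56 ± 0.10 (adjusted p = 1.9e-06), and RS4;11 lower than SEM by -0.58 ± 0.11 (adjusted p = 0.00668, a call lost without RS4;11 DMSO replicate 2 or without SEM DMSO replicate 2, with adjusted p between 0.000625 and 0.057 over its alternatives). CYBA (203028_s_at) read 8.51 and 8.37 in RS4;11, 8.32 and 8.11 in SEM and 8.19, 7.73 and 7.24 in REH. RS4;11 minus REH in CYBA was 0.72 ± 0.23 (adjusted p = 0.0326), a call lost when RS4;11 replicate 2, RS4;11 replicate 3, REH replicate 2 or the MOLM-13 arrays were left out. NCF4 (207677_s_at) read between 11.24 and 11.40 on all 7 DMSO arrays of these lines, and RAC2 (213603_s_at) between 11.32 and 12.09, and in neither was a difference between lines called for the lead. The second RAC2 probe set, 207419_s_at, was higher in RS4;11 than in REH by 1.00 ± 0.17 (adjusted p = 0.00115, kept under all 15 alternatives, with 0.66 without REH DMSO replicates 1 and 3) and in SEM than in REH by 0.67 ± 0.17 (adjusted p = 0.0101, lost without SEM replicate 2 or without REH DMSO replicates 1 and 3). Without REH DMSO replicates 1 and 3 the RAC2 lead was higher in RS4;11 than in REH by 0.50 (adjusted p = 0.00471) and than in SEM by 0.33 (adjusted p = 0.0147), and CYBA was higher in SEM than in REH by 0.48 (adjusted p = 0.0189, against 0.115 with these arrays). In MOLM-13 the DMSO levels were 9.44 to 9.75 for CYBB, 9.11 to 9.15 for CYBA, 10.69 to 10.82 for NCF1, 11.88 to 11.96 for NCF4 and 13.35 to 13.36 for RAC2, on arrays with the higher median. For CYBB, MOLM-13 minus RS4;11 was 4.63 as deposited and 3.96 after all DMSO arrays were put on a common distribution, but MOLM-13 minus REH was 0.78 as deposited and 0.09 after it. For NCF4, MOLM-13 minus REH was 0.61 as deposited and -0.25 after it, so its direction depends on the scaling.

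Against DMSO, more oxidase probe sets were called after the combination than after either single compound in RS4;11, MOLM-13 and the mouse cells, while in SEM as many were called after MI-2-2 and in REH as many after EPZ004777. The count of members has to be read against the share of all probe sets called in the same comparison. In RS4;11, of 11 oxidase probe sets tested, 3 rose after the combination (20.2% of all probe sets were called), 1 after EPZ004777 (5.23%) and 2 after MI-2-2 (12.1%), and none fell. In SEM, of 11, 3 rose and 3 fell after the combination (23.5%), 2 fell after EPZ004777 (6.27%), and 4 rose and 2 fell after MI-2-2 (11.6%). In REH, of 11, 1 rose after the combination (4.1%) and 1 after EPZ004777 (2.26%), and limma called 0 after MI-2-2 (0.483%), where 1 had an unadjusted p under 0.05. In MOLM-13, of 12, 10 rose after the combination (42%), 3 after EPZ004777 (20.2%) and 2 after MI-2-2 (13.7%), with 1 CYBB probe set (217431_x_at) in the first and second counts that passed the filter only through treated arrays. In the mouse cells all 10 rose after the combination (62.4%), 2 after EPZ004777 (3.21%) and 1 after MI-2-2 (3%), and in neither MOLM-13 nor the mouse cells did any fall. All comparisons with DMSO in a model share its DMSO arrays. A bulk sample cannot tell fewer cells of a type from less RNA per cell, and this holds for every change below.

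**Figure D1:**
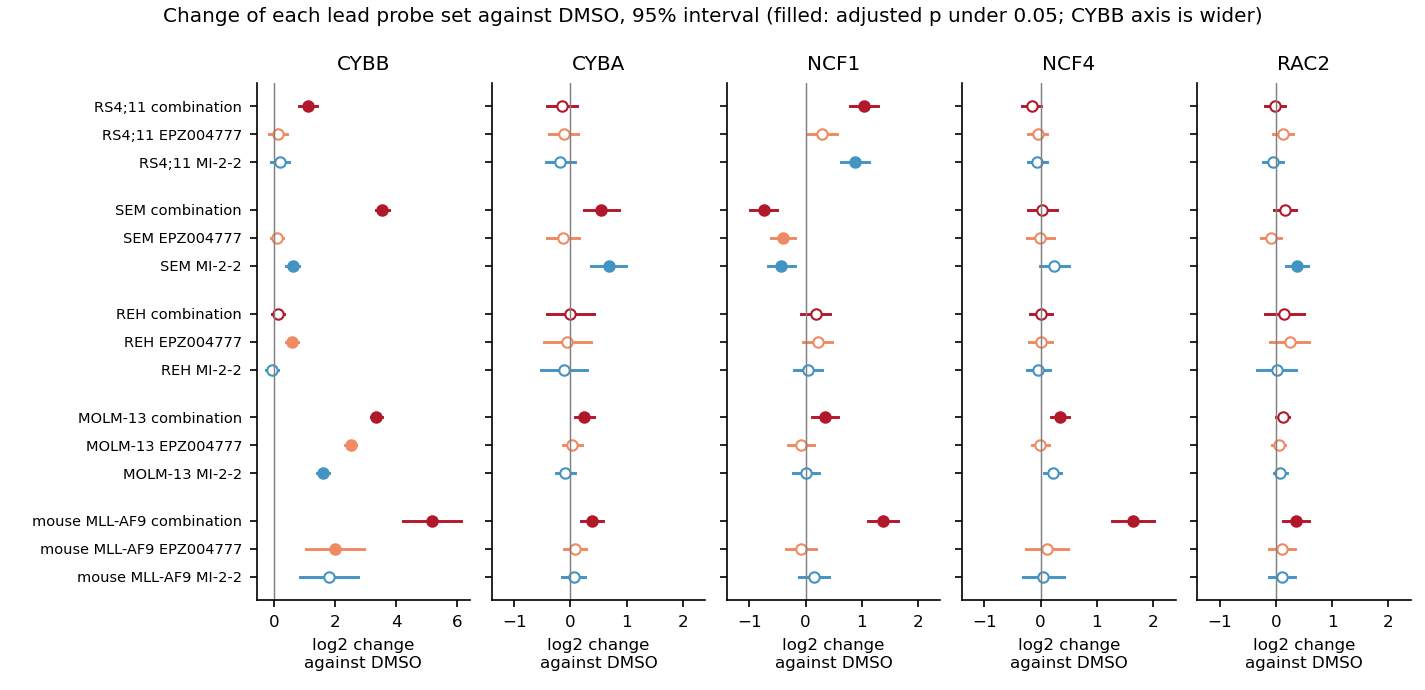
Change of each lead probe set against DMSO (x axis, log2, with the 95% interval) by model and treatment (rows). Filled points are called at an adjusted p under 0.05. CYBB has a wider axis and, in all models but REH, the largest change after the combination, up to 5.16 in the mouse cells. NCF1 lies right of 0 in RS4;11 and left of 0 in SEM.

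CYBB, the catalytic subunit, rose after the combination in 4 of the 5 models. In each of them its change after the combination was the largest of these 5 leads, though in RS4;11 NCF1 came close (1.12 against 1.04). After the single compounds this did not hold in RS4;11 and SEM. There the NCF1 lead changed more than CYBB after EPZ004777, and after MI-2-2 NCF1 did in RS4;11 and CYBA in SEM. In SEM the CYBB level was 8.39 and 8.51 after the combination, 5.03, 4.92 and 5.05 after EPZ004777 and 5.46 and 5.60 after MI-2-2, against 4.95 and 4.86 with DMSO. Both combination arrays thus stood at percentile 75.6 to 76.5 of the array, in a line whose DMSO arrays read CYBB near percentile 40. On the log2 scale CYBB rose by 3.54 ± 0.09 after the combination (adjusted p = 1.5e-06) and by 0.63 ± 0.09 after MI-2-2 (adjusted p = 0.00517), and the change after EPZ004777 was 0.10 ± 0.08 (adjusted p = 0.54). No fold is given for SEM or RS4;11, whose DMSO arrays read CYBB at the level of the filter. With that actin difference in the fit (the actin covariate), which in SEM moves with the treatments, the combination change was 4.08 and no longer called (adjusted p = 0.101), and the MI-2-2 change was 1.19 (adjusted p = 0.834). RNA quality and these treatments cannot be told apart in SEM.

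In RS4;11, CYBB read 5.83, 6.22 and 6.10 after the combination, 4.97, 4.97 and 5.23 after EPZ004777 and 5.10, 5.32 and 5.01 after MI-2-2, against 4.93 and 4.93 with DMSO. Every combination array lay above every other RS4;11 array, at percentile 52.2 to 56.8. It rose by 1.12 ± 0.13 log2 after the combination (adjusted p = 0.000224), while the change was 0.13 ± 0.13 after EPZ004777 (adjusted p = 0.632) and 0.21 ± 0.13 after MI-2-2 (adjusted p = 0.338).

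MOLM-13, a myeloid line, expressed CYBB with DMSO and more after each treatment. Its level was 12.95, 12.86 and 12.91 after the combination, 12.05, 12.07 and 12.09 after EPZ004777 and 11.14, 11.07 and 11.28 after MI-2-2, against 9.75, 9.47 and 9.44 with DMSO. The 4 groups did not overlap. CYBB rose 10.2-fold after the combination (95% interval 8.98 to 11.6; adjusted p = 1.02e-09), 5.72-fold after EPZ004777 (adjusted p = 3.62e-08) and 3.06-fold after MI-2-2 (adjusted p = 1.17e-06).

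The mouse MLL-AF9 cells had the widest range. The Cybb lead (1436778_at) read 13.25, 11.99 and 11.92 after the combination, 9.48, 9.77 and 8.46 after EPZ004777 and 9.17, 8.91 and 8.99 after MI-2-2, against 6.59, 7.52 and 7.57 with DMSO. All treated arrays lay above all DMSO arrays, and combination replicate 1 lay above replicates 2 and 3, the arrays with the higher actin difference. Cybb rose 35.8-fold after the combination (95% interval 18.6 to 69.0; 5.16 ± 0.43 log2, adjusted p = 3.56e-06), and the change was 6.02 without replicates 2 and 3 (adjusted p = 1.75e-05), 4.73 without replicate 1 (adjusted p = 1.46e-06) and 5.76 with the actin covariate (adjusted p = 4.46e-06). After EPZ004777 it rose 4.03-fold (2.01 ± 0.43, adjusted p = 0.0301), but this call was lost under 9 of 19 alternatives, among them leaving out any DMSO or MI-2-2 array or EPZ004777 replicate 1 or 2 (adjusted p 0.00533 to 0.137). After MI-2-2 the change was 1.80 ± 0.43 (adjusted p = 0.0541), and a second Cybb probe set, 1436779_at, rose by 2.10 ± 0.38 (adjusted p = 0.0147, lost without any single MI-2-2 array, with adjusted p up to 0.0663). Without combination replicates 2 and 3 the lead was called after MI-2-2 as well (adjusted p = 0.016).

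REH, which already expressed CYBB with DMSO, moved little. Its level was 8.86, 8.84 and 9.02 after the combination, 9.32, 9.36 and 9.46 after EPZ004777 and 8.62, 8.75 and 8.80 after MI-2-2, against 8.77, 8.75 and 8.80 with DMSO. The EPZ004777 arrays lay above all others, and the combination arrays lay above all MI-2-2 and DMSO arrays. CYBB rose 1.53-fold after EPZ004777 (0.61 ± 0.09 log2, adjusted p = 0.00418), and by 0.63 without DMSO replicates 1 and 3 (adjusted p = 0.0305), but by the mean of its probe sets the change was 0.25 (adjusted p = 0.279). After the combination, which holds the same EPZ004777 dose, the change was 0.13 ± 0.09 (95% interval -0.07 to 0.33, adjusted p = 0.45), and after MI-2-2 it was -0.05 ± 0.09 (adjusted p = 0.811).

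**Figure D2:**
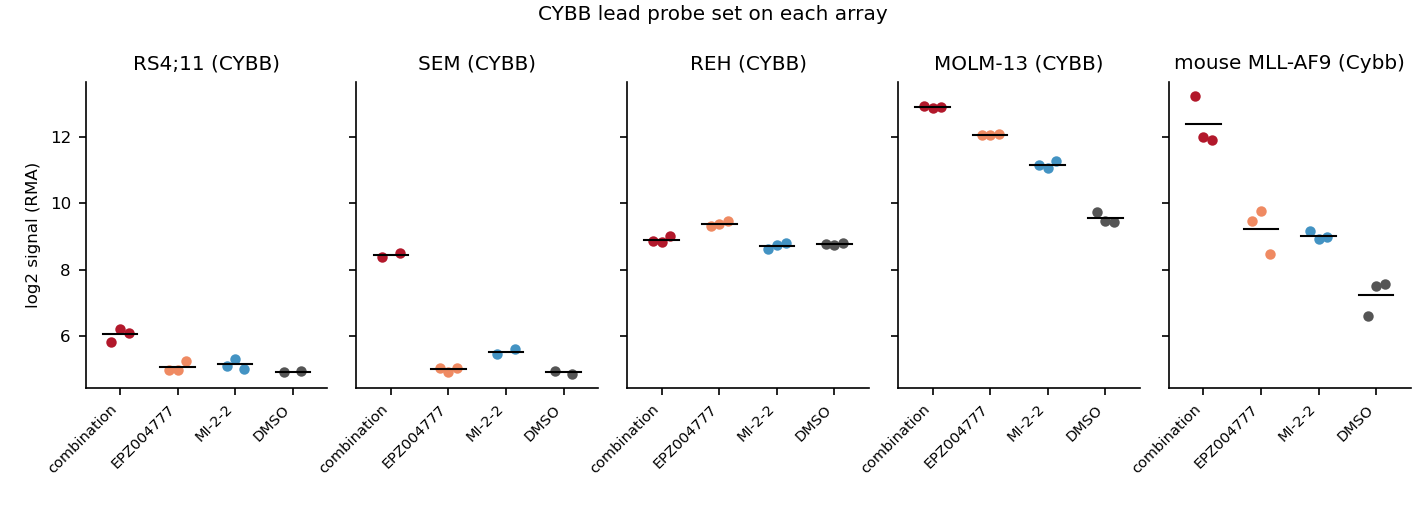
Level of the CYBB lead probe set (y axis, log2 RMA signal) on each array, by treatment (x axis) and model (panels); bars are group means. RS4;11 and SEM start near 4.9 with DMSO, and the combination arrays of SEM reach 8.39 and 8.51; the MOLM-13 and mouse arrays have another overall distribution and are not on the scale of the other lines.

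The probe sets of CYBB did not all move together. 203922_s_at rose by 1.25 ± 0.16 after the combination in SEM (adjusted p = 0.0012) and by 3.94 ± 0.14 in MOLM-13 (adjusted p = 1.11e-08), but its change in RS4;11 was 0.27 ± 0.19 (adjusted p = 0.353). 233538_s_at ran the other way in SEM: it read 8.69 and 8.61 after the combination, against 9.78 and 9.37 with DMSO, a fall of -0.93 ± 0.14 (adjusted p = 0.00319). The change of 233538_s_at after the combination was -0.37 ± 0.18 in RS4;11 (adjusted p = 0.188), 0.04 ± 0.25 in REH (adjusted p = 0.959) and 0.21 ± 0.17 in MOLM-13 (adjusted p = 0.35). With DMSO it was also higher in RS4;11 than in REH by 2.65 ± 0.28 and in SEM than in REH by 3.35 ± 0.28, where the lead was lower by more than 3.8. 233538_s_at was the highest CYBB probe set of RS4;11 and SEM, so a reading of CYBB by its highest probe set there gives a fall, and by the mean of its probe sets the RS4;11 combination change was no longer called (adjusted p = 0.371). What 233538_s_at reads was not tested. 217431_x_at passed the filter in MOLM-13 alone and only through treated arrays, so it had to differ and its change is not given. It read 7.22, 6.295 and 6.62 after the combination, at percentile 51.3 to 61.2, and 5.78, 5.30 and 5.28 after EPZ004777, at percentile 36.5 to 43.3, against 4.51, 4.15 and 4.19 with DMSO, at percentile 20.2 to 25.9. The 3 mouse Cybb probe sets rose by 5.16 to 5.91 after the combination.

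**Figure D3:**
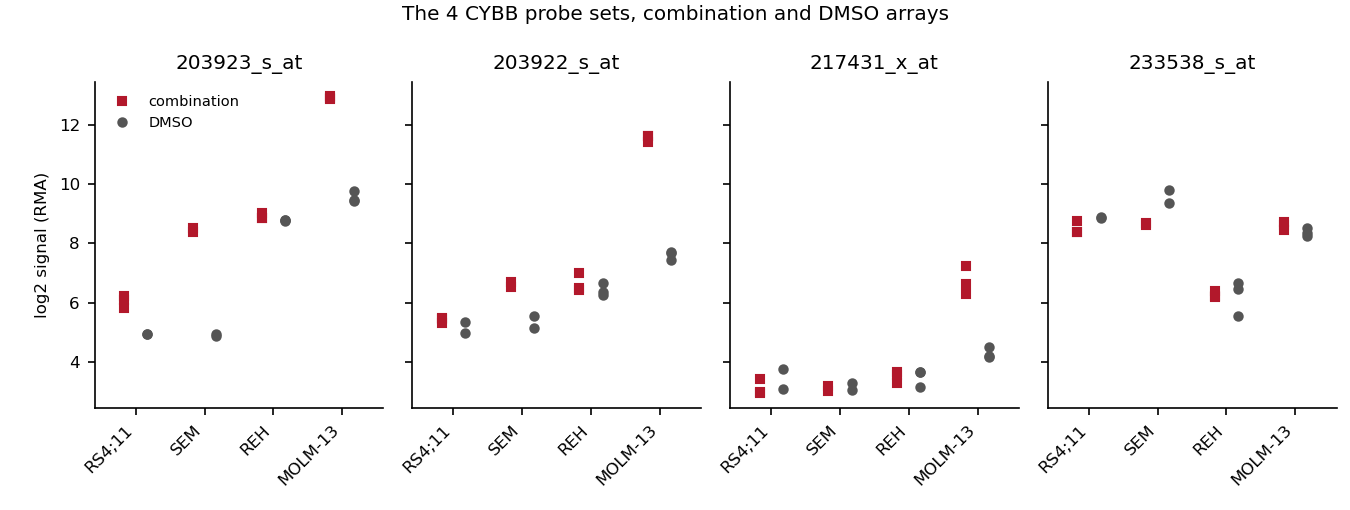
The 4 human CYBB probe sets (panels) on each combination array (squares) and DMSO array (circles), as log2 RMA signal (y axis) by line (x axis); values are to be compared within a panel only. In SEM the combination arrays lie above DMSO in 203923_s_at and 203922_s_at and below DMSO in 233538_s_at.

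CYBA, the membrane partner of CYBB, moved far less. Its lead was called after the combination in 3 of the 5 models. In SEM it read 8.82 and 8.71 after the combination, 8.22, 7.86 and 8.16 after EPZ004777 and 8.86 and 8.94 after MI-2-2, against 8.32 and 8.11 with DMSO. The 4 arrays that had received MI-2-2 lay above the others. CYBA rose in SEM by 0.55 ± 0.14 after the combination (1.47-fold, adjusted p = 0.0223) and by 0.68 ± 0.14 after MI-2-2 (1.60-fold, adjusted p = 0.017). Both calls were lost with the actin covariate (adjusted p = 0.925 and 0.938) and without DMSO replicate 3, the first also without combination replicate 1 or 3 and the second without MI-2-2 replicate 1 or 3.

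In MOLM-13, CYBA read 9.22, 9.41 and 9.51 after the combination, against 9.11, 9.15 and 9.13 with DMSO, a rise of 0.25 ± 0.08 (adjusted p = 0.023) that was lost without combination replicate 2 or 3 or DMSO replicate 1 or 3 and in the fit shared by the 44 human arrays (adjusted p up to 0.186 over its alternatives). Its second probe set, 229445_at, rose by 0.43 ± 0.11 (adjusted p = 0.00827; 0.0973 with the actin covariate). The mouse Cyba lead read 13.95, 13.73 and 13.71 after the combination, against 13.41, 13.37 and 13.44 with DMSO, 1.31-fold higher (0.39 ± 0.09, adjusted p = 0.00322). No CYBA probe set was called in RS4;11 or REH after any treatment, and the lead's changes there lay between -0.18 and -0.002.

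NCF1, the cytosolic organiser, rose in RS4;11 and fell in SEM. The lead cannot separate NCF1 from its near-identical copies, being annotated to NCF1, NCF1B and NCF1C together. The second probe set, 214084_x_at, is annotated to NCF1 alone, and whether it also reads the copies was not tested. In RS4;11 the lead read 9.58, 9.61 and 9.94 after the combination, 9.02, 8.87 and 9.02 after EPZ004777 and 9.61, 9.60 and 9.42 after MI-2-2, against 8.65 and 8.68 with DMSO. Every treated array lay above both DMSO arrays. The rise was 2.06-fold after the combination (1.04 ± 0.11, adjusted p = 0.000127) and 1.84-fold after MI-2-2 (0.88 ± 0.11, adjusted p = 0.0011), and the change after EPZ004777 was 0.30 ± 0.11 (adjusted p = 0.157). In RS4;11 214084_x_at gave 1.11 ± 0.10 after the combination (adjusted p = 2.17e-05), 1.03 ± 0.10 after MI-2-2 (adjusted p = 0.000137) and 0.38 ± 0.10 after EPZ004777 (adjusted p = 0.0462, lost under 13 of 19 alternatives, with adjusted p between 0.0256 and 0.274).

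In SEM, NCF1 read 8.47 and 8.53 after the combination, 8.96, 8.68 and 8.88 after EPZ004777 and 8.81 and 8.82 after MI-2-2, against 9.26 and 9.22 with DMSO. Every treated array lay below both DMSO arrays, the reverse of RS4;11. NCF1 fell after the combination to 0.597 of DMSO (-0.74 ± 0.10, adjusted p = 0.00194), after EPZ004777 by -0.40 ± 0.09 (adjusted p = 0.0479) and after MI-2-2 by -0.43 ± 0.10 (adjusted p = 0.0358). The combination call was lost only with the actin covariate among its 17 alternatives (-0.15, adjusted p = 0.986). The EPZ004777 call was lost under 11 of 17, among them leaving out either DMSO array (adjusted p 0.023 to 0.285), and the MI-2-2 call under 9 of 17, among them leaving out either DMSO or either MI-2-2 array (adjusted p 0.0155 to 0.986).

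NCF1 also rose after the combination in both myeloid models. In MOLM-13 it read 11.04, 11.14 and 11.11 after the combination, against 10.69, 10.82 and 10.73 with DMSO, 1.27-fold higher (0.35 ± 0.10, adjusted p = 0.0181, lost without combination replicate 2 or DMSO replicate 1 and with the actin covariate, with adjusted p between 0.00123 and 0.119). In the mouse cells Ncf1 (1456772_at) read 13.40, 13.61 and 13.57 after the combination, 11.96, 12.02 and 12.23 after EPZ004777 and 12.19, 12.50 and 12.25 after MI-2-2, against 12.06, 12.26 and 12.15 with DMSO. The single compounds overlapped DMSO and the combination did not. The mouse rise was 2.59-fold (1.37 ± 0.12, adjusted p = 5.3e-06; 1.25 without combination replicates 2 and 3), and the other Ncf1 probe sets rose by 1.58 and 1.59. In REH no NCF1 change was called, and the lead's changes lay between 0.05 and 0.22.

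NCF4, the phosphoinositide-binding subunit, was steady in the B-precursor lines. Over all arrays of RS4;11, SEM and REH its lead stayed between 11.08 and 11.73, and no NCF4 change was called there. It rose after the combination in MOLM-13, where it read 12.27, 12.23 and 12.27, against 11.96, 11.89 and 11.88 with DMSO (1.27-fold, 0.35 ± 0.07, adjusted p = 0.00245). The mouse Ncf4 lead read 13.36, 13.88 and 13.76 after the combination, 12.21, 12.28 and 11.92 after EPZ004777 and 12.09, 12.07 and 12.07 after MI-2-2, against 11.74, 12.21 and 12.15 with DMSO. Only the combination arrays lay clear of DMSO. The mouse rise was 3.11-fold (1.64 ± 0.17, adjusted p = 1.64e-05; 1.33 without combination replicates 2 and 3, adjusted p = 0.000413).

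RAC2, the GTPase, had high levels, and the changes of its lead were small. The lead changed after MI-2-2 in SEM, where it read 12.001 and 12.164, against 11.74 and 11.66 with DMSO (1.30-fold, 0.38 ± 0.09, adjusted p = 0.0279; lost without MI-2-2 replicate 3 or either DMSO array and, at an adjusted p of 0.928, with the actin covariate). It changed after the combination in the mouse cells, where Rac2 read 13.63, 13.42 and 13.33, against 13.01, 13.16 and 13.12 with DMSO (1.29-fold, 0.37 ± 0.10, adjusted p = 0.0108). The second mouse probe set, 1440208_at, rose more, by 0.79 ± 0.12 (1.73-fold, adjusted p = 0.000293). In SEM 207419_s_at rose by 0.43 ± 0.11 after MI-2-2 (adjusted p = 0.0435), a call lost with the actin covariate. In MOLM-13 the lead's change after the combination was 0.13 ± 0.05 (adjusted p = 0.0777), and 207419_s_at rose by 0.28 ± 0.09 (adjusted p = 0.0236), a call lost with the actin covariate and without combination replicate 2 or either of DMSO replicates 1 and 3 (adjusted p between 0.0131 and 0.251). In REH 207419_s_at read 9.41, 9.52 and 9.44 after the combination, against 8.81, 9.28 and 8.73 with DMSO (0.52 ± 0.13, adjusted p = 0.0433), and without DMSO replicates 1 and 3 the change was 0.18 (adjusted p = 0.453). In RS4;11 no RAC2 change was called.

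**Figure D4:**
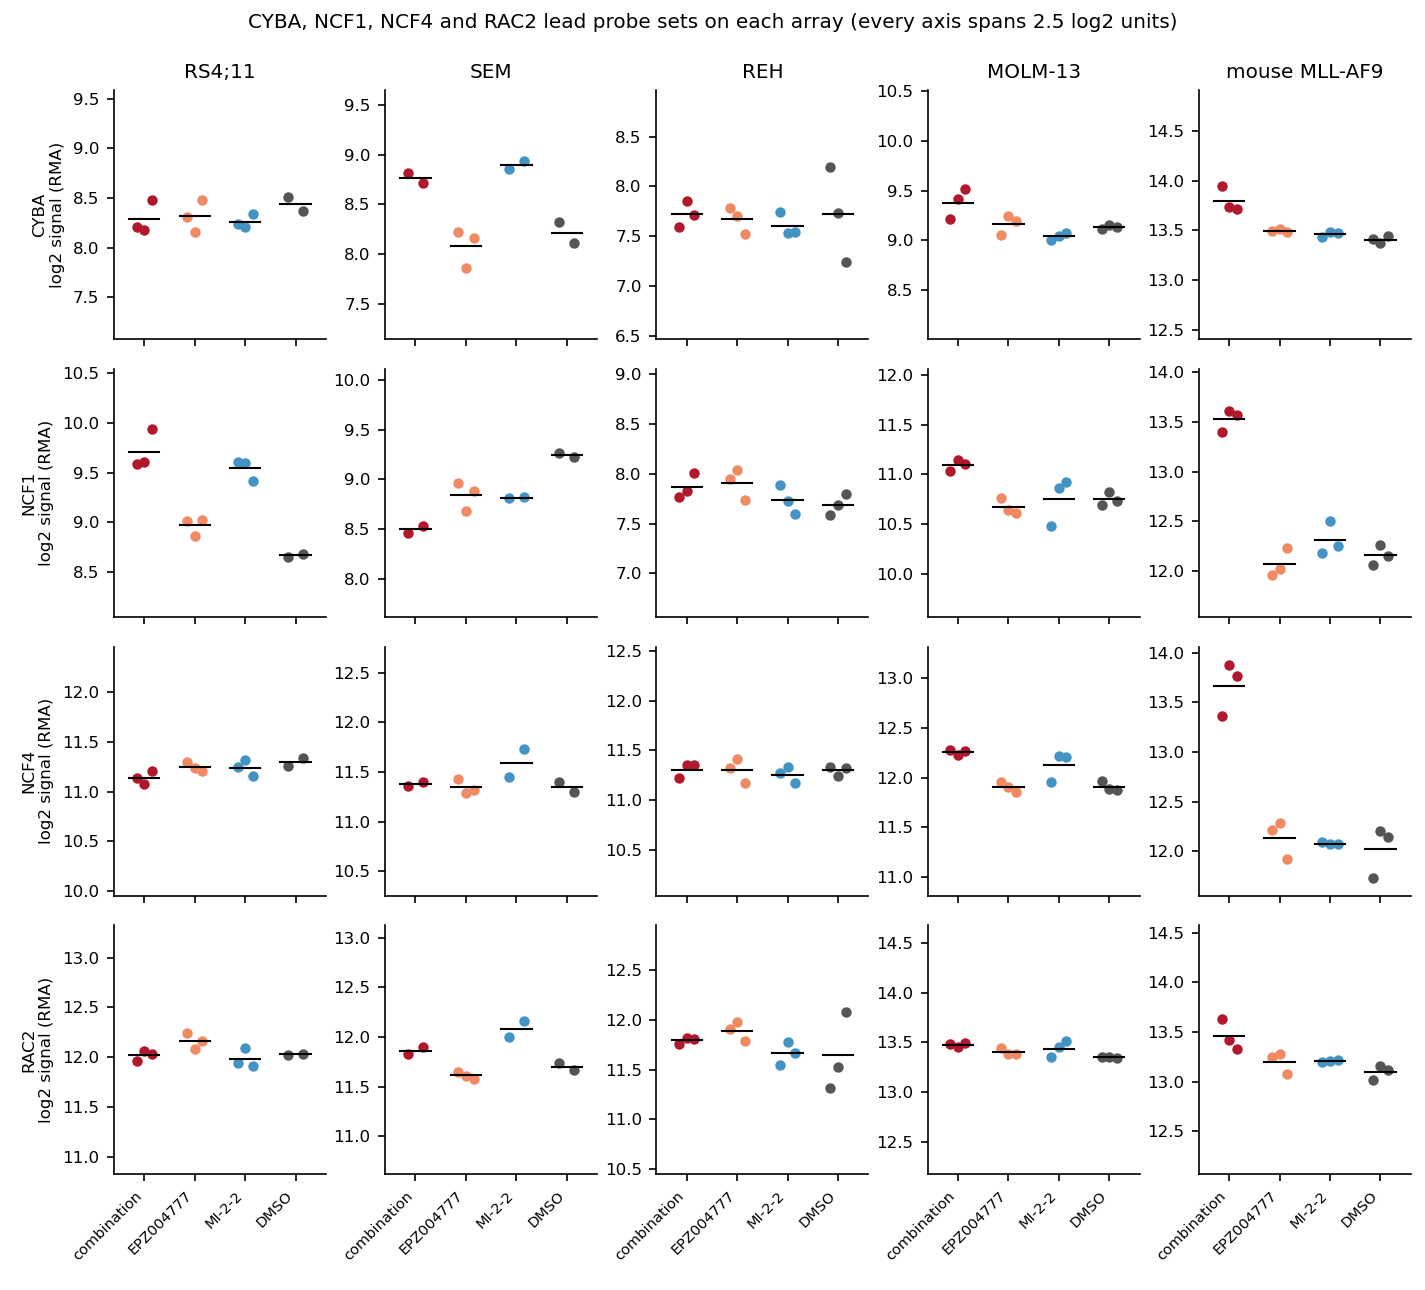
Levels of the CYBA, NCF1, NCF4 and RAC2 leads (rows, y axis in log2 RMA signal, all of the same span) on each array by treatment (x axis) and model (columns); bars are group means. NCF1 lies above DMSO on every treated RS4;11 array and below it on every treated SEM array, and the mouse combination arrays stand above the others for NCF1 and NCF4.

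Set against each single compound, the combination differed most in SEM, MOLM-13 and the mouse cells. These comparisons share the combination arrays. Of 11 oxidase probe sets in SEM, 4 were higher and 3 lower after the combination than after EPZ004777 (18.9% of all probe sets were called) and 2 higher than after MI-2-2 (2.65%). In RS4;11, 3 of 11 were higher than after EPZ004777 (14.9%) and 1 than after MI-2-2 (6.37%). In MOLM-13, 7 of 12 were higher than after EPZ004777 (25.9%) and 7 than after MI-2-2 (31.8%). Both of these counts include the CYBB probe set 217431_x_at, which passed the filter only through treated arrays. All 10 mouse probe sets were higher than after EPZ004777 (61.4%) and 9 than after MI-2-2 (60.9%). In REH limma called 0 of 11 against EPZ004777 (0.0202%), where 2 had an unadjusted p under 0.05, and 0 against MI-2-2 (0.861%), where none had. CYBB was higher after the combination than after EPZ004777 by 3.45 ± 0.08 in SEM, 0.99 ± 0.12 in RS4;11, 0.84 ± 0.08 in MOLM-13 and 3.15 ± 0.43 in the mouse culture. It was higher than after MI-2-2 by 2.92 ± 0.09 in SEM, 0.91 ± 0.12 in RS4;11, 1.74 ± 0.08 in MOLM-13 and 3.36 ± 0.43 in the mouse culture. In REH CYBB after the combination was -0.48 ± 0.09 from its level after EPZ004777 (adjusted p = 0.088; 0.0277 with DMSO replicates 1 and 3 left out of the fit).

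The combination was also set against the sum of the 2 single changes on the log2 scale. In SEM 2 of 11 oxidase probe sets, both of CYBB, lay above the sum (0.453% of all probe sets departed from it). CYBB exceeded the sum by 2.82 ± 0.12 (adjusted p = 0.000477), and 203922_s_at exceeded it by 1.46 ± 0.21 (adjusted p = 0.0378, lost under 11 of 17 alternatives, with adjusted p between 0.00155 and 0.309). In MOLM-13, 1 of 12 lay below it (7.08%), the CYBB lead, by -0.78 ± 0.12 (adjusted p = 0.00457; with the mean of the probe sets -0.16, adjusted p = 0.575). Of the 10 mouse probe sets, 6 lay above (42.9%). These were Ncf4, by 1.48 ± 0.24 (adjusted p = 0.000906), all 3 Ncf1 probe sets, the lead by 1.30 ± 0.17 (adjusted p = 0.000271), and 2 Cybb probe sets, while the Cybb lead gave 1.35 ± 0.60 (adjusted p = 0.0928) and 2.22 without combination replicates 2 and 3 (adjusted p = 0.0187). In RS4;11 limma called 0 of 11 (1.28%), 2 having an unadjusted p under 0.05, and CYBB gave 0.78 ± 0.18 (adjusted p = 0.0656). In REH 0 probe sets of any gene departed from the sum, and of the oxidase probe sets 1 had an unadjusted p under 0.05. The CYBB lead in SEM lay at percentile 39.6 to 41.8 with DMSO and after EPZ004777, at the level of the filter. In RS4;11 with DMSO it lay at percentile 40.5 to 40.6, and in MOLM-13 after the combination at 97.7 to 97.9. The part of the low and high ends of the signal range in these departures was not tested.

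**Figure D5:**
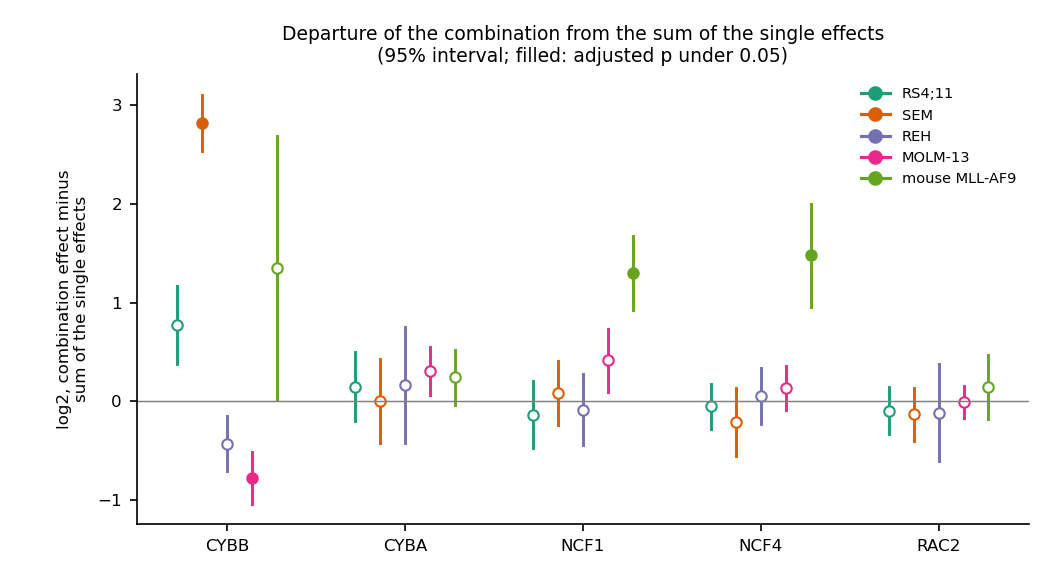
Combination change minus the sum of the EPZ004777 and MI-2-2 changes (y axis, log2, with the 95% interval) for each lead (x axis) and model (colours). Filled points are called. CYBB lies 2.82 above 0 in SEM and 0.78 below 0 in MOLM-13, and NCF1 and NCF4 lie above 0 in the mouse cells. The CYBB lead in SEM read at the level of the filter with DMSO and after EPZ004777.

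RS4;11, SEM and REH received the same doses for the same time, so their changes were compared directly. Counts below are of signed changes, so a lower one can be a larger fall. After the combination, 2 of 11 oxidase probe sets had a higher change and 2 a lower one in RS4;11 than in SEM (9.92% of all probe sets were called), 3 higher and 1 lower in RS4;11 than in REH (14.1%), and 2 higher and 2 lower in SEM than in REH (15.8%). The combination change of CYBB in RS4;11 was smaller than in SEM by -2.42 ± 0.16 (adjusted p = 6.95e-11) and larger than in REH by 0.99 ± 0.14 (adjusted p = 3.52e-05), and in SEM it was larger than in REH by 3.41 ± 0.15 (adjusted p = 4.56e-14). These CYBB changes start from unlike levels, with DMSO 4.86 to 4.95 in SEM and 8.75 to 8.80 in REH. After the combination the levels were 8.39 to 8.51 in SEM and 8.84 to 9.02 in REH. The combination change of NCF1 in RS4;11 exceeded that in SEM by 1.79 ± 0.17 (adjusted p = 6.84e-08) and that in REH by 0.86 ± 0.16 (adjusted p = 0.000466), and in SEM it was below that in REH by -0.93 ± 0.16 (adjusted p = 0.000261). RS4;11 and SEM, which carry the same fusion, thus differed in both genes: CYBB rose less in RS4;11 than in SEM, and NCF1 rose in RS4;11 and fell in SEM. The actin covariate was not fitted for any difference between lines. In SEM the actin difference moved with the combination and with MI-2-2. Differences that involve SEM under these treatments therefore cannot be told apart from RNA quality.

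After MI-2-2, the change was higher for 2 of 11 and lower for 1 in RS4;11 than in SEM (4.49%), higher for 2 and lower for 1 in RS4;11 than in REH (8.84%), and higher for 2 in SEM than in REH (8.8%). The NCF1 change in RS4;11 exceeded that in SEM by 1.30 ± 0.17 (adjusted p = 2.3e-05) and that in REH by 0.83 ± 0.16 (adjusted p = 0.00184). The changes of CYBB and CYBA in SEM exceeded those in REH by 0.68 ± 0.15 (adjusted p = 0.00505) and 0.80 ± 0.25 (adjusted p = 0.0425). After EPZ004777, the change was higher for 2 of 11 in RS4;11 than in SEM (3.51%) and lower for 4 in SEM than in REH (5.51%), and limma called 0 between RS4;11 and REH (1.82%), 2 having an unadjusted p under 0.05. The CYBB change after EPZ004777 in SEM was below that in REH by -0.52 ± 0.14 (adjusted p = 0.0353), and the NCF1 change by -0.62 ± 0.16 (adjusted p = 0.0197). Without REH DMSO replicates 1 and 3 those adjusted p were 0.0839 and 0.0588. The NCF1 change after EPZ004777 in RS4;11 exceeded that in SEM by 0.70 ± 0.16 (adjusted p = 0.017). Several of these calls rest on few arrays. The CYBA call after MI-2-2 was lost under 12 of 37 alternatives, among them leaving out either SEM MI-2-2 or either SEM DMSO array (adjusted p 0.00137 to 0.172). After EPZ004777 the CYBB call was lost under 8 of 37 (0.0207 to 0.157), the NCF1 call against REH under 6 (0.011 to 0.091) and the NCF1 call between RS4;11 and SEM under 5 (0.00826 to 0.0851), all 3 also when either SEM DMSO array was left out. The second NCF1 probe set, 214084_x_at, kept both of its EPZ004777 calls under all 37, with -0.68 ± 0.14 for SEM minus REH (adjusted p up to 0.0285) and 0.82 ± 0.15 for RS4;11 minus SEM (adjusted p up to 0.0269).

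Other genes of the oxidase system were taken from lists. Of 13 other genes of the NADPH oxidase family and its partners, 9 were tested in RS4;11. After the combination 2 were called higher (20.2% of all probe sets were called), NOX4 and NOX3, catalytic oxidases of other tissues. Both lay below percentile 40 with DMSO, NOX4 at 3.21 and 3.84 and NOX3 at 3.78 and 4.25. They passed the filter only through treated arrays and so had to differ, and no change is given for them. Limma called 0 genes of this list in SEM and 0 in REH, with 7 tested in each (23.5% and 4.1% of all probe sets after the combination). At an unadjusted p under 0.05 after the combination there was 1 in SEM and none in REH. In MOLM-13 2 of 7 tested were called higher after the combination (42%). NOXA1, an activator subunit, rose there by 0.36 ± 0.08 and RAC1 by 0.14 ± 0.05. In the mouse cells 1 of 3 tested was called higher after the combination (62.4%). This was Cybc1, a chaperone needed for the CYBB and CYBA dimer, which rose by 0.75 ± 0.15 (adjusted p = 0.00123).

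Genes that drive assembly of the oxidase, such as protein kinase C isoforms that phosphorylate NCF1, exchange factors for RAC2 and kinases that signal to it, formed a list of 26. Of these, 23 were tested in SEM and 8 rose and 4 fell after the combination (23.5% of all probe sets were called; median change 0.19, against -0.03 over all tested probe sets), with PRKCB up by 2.40 ± 0.11, PRKCD by 1.24 ± 0.18 and the proton channel HVCN1 by 0.88 ± 0.14. After MI-2-2 in SEM 6 rose and 1 fell (11.6%), and after EPZ004777 2 fell (6.27%). FGR, one of those called higher after the combination and after MI-2-2, passed the filter in SEM only through treated arrays. Of 23 tested in MOLM-13, 17 rose and 2 fell after the combination (42%; median 0.49, against 0.00), 13 rose after EPZ004777 (20.2%; median 0.24) and 10 after MI-2-2 (13.7%; median 0.18), and FGR (2.40 ± 0.13), PRKCA (2.17 ± 0.09), PRKCD (1.20 ± 0.15) and PREX1 (0.96 ± 0.06) were among those that rose after the combination. Of 22 tested in the mouse cells, 15 rose and 3 fell after the combination (62.4%; median 0.84, against -0.09), among them Pik3r5 (3.92 ± 0.24), Tiam1 (3.07 ± 0.12) and Hvcn1 (2.54 ± 0.13), and 2 rose after each single compound (3.21% and 3%). Fgr, called higher after all 3 mouse treatments, lay below percentile 40 on the DMSO arrays. Of 22 tested in RS4;11, 4 rose and 3 fell after the combination (20.2%; median -0.07, against -0.03), with HVCN1 up by 0.84 ± 0.10 and PREX1 down by -0.78 ± 0.16. In REH limma called 0 of 21 after the combination (4.1%), where 4 had an unadjusted p under 0.05.

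Among genes that supply NADPH or handle peroxide, a list of 21, the one with the largest rise in MOLM-13 was MPO, the granule enzyme that turns peroxide into hypochlorous acid. MPO rose there by 3.26 ± 0.07 after the combination, 3.02 ± 0.07 after EPZ004777 and 0.83 ± 0.07 after MI-2-2, and Mpo in the mouse cells by 2.30 ± 0.50, 2.20 ± 0.50 and 2.40 ± 0.50 after the same 3 treatments. After the combination 6 of 19 rose and 5 fell in MOLM-13 (42% of all probe sets were called), and 7 of 16 rose and 4 fell in the mouse cells (62.4%). In SEM 6 of 17 rose and 1 fell after the combination (23.5%), and 1 of the 6, MPO, passed the filter only through treated arrays. After it 1 of 17 rose and 1 fell in RS4;11 (20.2%). Limma called 0 of 17 in REH after it (4.1%), where 2 had an unadjusted p under 0.05. The enzymes of the pentose phosphate pathway TKT, PGD and TALDO1 rose in MOLM-13 by 0.64 ± 0.09, 0.23 ± 0.06 and 0.16 ± 0.05, and the mouse Pgd by 0.59 ± 0.10. NQO1, a quinone reductase, rose in SEM by 1.22 ± 0.16 and in the mouse cells by 1.92 ± 0.16 and fell in MOLM-13 by -0.57 ± 0.14 and in RS4;11 by -0.41 ± 0.10.

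Of 11 transcription factor genes known to bind oxidase promoters, SPI1, which encodes PU.1, rose after the combination in SEM by 1.21 ± 0.12 (adjusted p = 0.000356), in the mouse cells by 1.14 ± 0.13 (adjusted p = 3.29e-05) and in MOLM-13 by 0.51 ± 0.08 (adjusted p = 0.000373). It was not called in RS4;11 (0.08 ± 0.10, adjusted p = 0.585) or REH (0.24 ± 0.13, adjusted p = 0.338). After MI-2-2 alone SPI1 rose in SEM by 1.01 ± 0.12 (adjusted p = 0.00205). CEBPA, a myeloid factor, rose after the combination in RS4;11 by 1.47 ± 0.11 and in SEM by 1.83 ± 0.16, while Cebpa fell in the mouse cells by -0.46 ± 0.09. CEBPB fell in RS4;11 by -1.21 ± 0.09 and in SEM by -1.45 ± 0.10, and Cebpb rose in the mouse cells by 1.16 ± 0.14. IRF8, a factor of monocytes and B cells that acts on CYBB, was the only one of 9 tested that was called in REH. It rose there by 1.37 ± 0.12 after EPZ004777 (adjusted p = 0.000189), where 2.26% of all probe sets were called. After the combination it rose there by 0.73 ± 0.12 (adjusted p = 0.00584), where 4.1% were called. In MOLM-13 IRF8 fell by -0.62 ± 0.05 after the combination, and in the mouse cells Irf8 fell by -2.46 ± 0.52 after MI-2-2 (adjusted p = 0.0315). Over the list 1 rose and 1 fell in RS4;11 after the combination, of 9 tested (20.2% of all probe sets were called), 3 and 2 in SEM, of 9 (23.5%), 3 and 1 in MOLM-13, of 10 (42%), and 4 and 2 in the mouse cells, of 9 (62.4%). In RS4;11, MOLM-13 and the mouse cells these shares lie near that of all probe sets.

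The myeloid marker genes, summed on each array, were highest after the combination in RS4;11, SEM, MOLM-13 and the mouse cells. In a sum of linear signals the brightest genes weigh most, so a single gene, such as LYZ in SEM, can carry much of a rise. The part of each gene in these sums was not computed. The summed linear signal of 11 myeloid marker genes in SEM was 3267 to 3385 after the combination, 310 to 338 after EPZ004777 and 861 to 951 after MI-2-2, against 271 with DMSO, and of the 4 that exceeded percentile 40 on both DMSO arrays 3 rose after the combination, CSF1R by 2.35, ITGAM by 3.36 and LYZ by 6.33. The 3 others tested, CSF2RA, FCGR1A and MNDA, were called higher too but passed the filter only through treated arrays. The summed signal of 9 B-precursor markers in SEM lay between 19965 and 23312 on all arrays, but single markers moved in both directions: 3 rose and 2 fell after the combination, and 4 rose after MI-2-2. In RS4;11, 4 of these 9 rose and 2 fell after the combination. In RS4;11 the myeloid sum was 670 to 768 after the combination, 485 to 521 after EPZ004777 and 586 to 619 after MI-2-2, against 428 to 457 with DMSO, and 2 of 5 tested rose, LYZ by 1.38 and ITGAM by 1.52. In MOLM-13 it was 71294 to 73431 after the combination, 60834 to 61149 after EPZ004777 and 55209 to 58818 after MI-2-2, against 44383 to 47068 with DMSO, and all 11 rose after the combination, CD14 from a DMSO level at percentile 40 of the arrays. In the mouse cells the sum of 10 markers was 66134 to 70173 after the combination, 38907 to 47659 after EPZ004777 and 41245 to 42632 after MI-2-2, against 25657 to 34432 with DMSO, and 8 rose after the combination. In REH it was 681 to 867 on all arrays and limma called 0 of 4 tested after the combination, where 1 had an unadjusted p under 0.05. Of the marker genes of T and NK cells, erythroid cells and megakaryocytes, and stroma, few passed the filter: 10 in RS4;11, 9 in SEM, 8 in REH, 11 in MOLM-13 and 9 in the mouse culture, and 6, 5, 8, 11 and 7 of them exceeded percentile 40 on all DMSO arrays. Of these last, 1 rose and 1 fell after the combination in RS4;11, in SEM and in REH, 6 rose and 1 fell in MOLM-13, and 3 rose and 2 fell in the mouse cells. Their part in the changes of the oxidase genes was not tested. Marker counts after the combination have to be read against the share of all probe sets called after it. This share was 62.4% for the mouse culture, 42% for MOLM-13, 23.5% for SEM, 20.2% for RS4;11 and 4.1% for REH. For SEM after MI-2-2 alone it was 11.6%.

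The genes whose group means were most like each lead over the 16 human groups are given as a description, without a test, since the points share lines, controls and array scales. For CYBB they were FUCA1 (Pearson r = 0.97), ANKRD44 (0.967) and ITGAM (0.966), the last the integrin subunit CD11b of phagocytes. For CYBA they were PRKCD (0.978), KLF13 (0.977) and UQCRC1 (0.974), for NCF1 BPNT1 (0.978), CLEC11A (0.974) and KGD4 (0.972), for NCF4 RARA (0.986), DNAJC5 (0.979) and BCL2L12 (0.979), and for RAC2 MYL11 (0.992), MMP24 (0.991) and TSPO2 (0.991). Over the 12 groups of RS4;11, SEM and REH the correlations of these 15 genes lay between 0.785 (RARA with NCF4) and 0.978 (KLF13 with CYBA). Over those 12 groups the 3 closest to CYBB were HLA-DRB1 (0.986), HLA-DRB6 (0.973) and PDLIM2 (0.97), and of the other 12 genes named only KLF13 for CYBA (0.978), BCL2L12 for NCF4 (0.917) and MYL11 for RAC2 (0.92) stayed among the closest 3.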

How the data were processed

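Expression was measured on Affymetrix arrays, 44 human and 12 mouse, each carrying the RNA of a single sample. Each deposited value is a log2 signal of a probe set. Per the submitters' processing notes, the authors used RMA, affy and R 3.0.2; which arrays were normalized together is not given in the sources used here. Where a platform annotation lists several genes for a probe set, the probe set was counted for each.

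From these values, limma 3.58.1 (lmFit and eBayes, R 4.3.3) fitted all arrays of a cell model with 1 coefficient per group, after the AFFX control probe sets and those that exceeded percentile 40 on fewer than 2 of the arrays were left out. P-values were adjusted by Benjamini-Hochberg over all probe sets tested, and a call is an adjusted p under 0.05. The DMSO fit held the 10 human DMSO arrays, and differences between lines came from interaction contrasts over RS4;11, SEM and REH. The comparison of MOLM-13 with the other lines had been planned as a test and is given as values only, because of its scale. The design text speaks of biological replicates, and p-values measure the spread between these samples only.

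The genes named were all probe sets of the 5 members, the lead being the one with the highest mean over the platform's arrays, the 3 genes with the highest correlation with each lead, and called members of the lists. The members and lists were chosen with earlier results of these data known. Summaries and figures used Python 3.11.15, pandas 2.3.3 and matplotlib 3.10.9, and the fits were tested on simulated data. Alternatives changed the filter, normalization, probe set choice, samples, actin covariate, array weights and replicate block.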

Additional observations from a re-analysis of the deposited data

Results flagged for a closer look

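The change of a lead probe set under the same treatment differed between RS4;11, SEM and REH in 13 comparisons, by the interaction term in limma with p-values adjusted over all probe sets. After the combination the difference for CYBB was 3.412 for SEM minus REH (adjusted p = 4.56e-14), 0.99 for RS4;11 minus REH (adjusted p = 3.52e-05) and -2.422 for RS4;11 minus SEM (adjusted p = 6.95e-11). For NCF1 after the combination it was -0.925 for SEM minus REH (adjusted p = 0.000261), 0.862 for RS4;11 minus REH (adjusted p = 0.000466) and 1.787 for RS4;11 minus SEM (adjusted p = 6.84e-08). After MI-2-2 it was 0.829 for NCF1 in RS4;11 minus REH (adjusted p = 0.00184), 1.303 for NCF1 in RS4;11 minus SEM (adjusted p = 2.3e-05), 0.676 for CYBB in SEM minus REH (adjusted p = 0.00505) and 0.796 for CYBA in SEM minus REH (adjusted p = 0.0425). After EPZ004777 it was -0.516 for CYBB in SEM minus REH (adjusted p = 0.0353), -0.618 for NCF1 in SEM minus REH (adjusted p = 0.0197) and 0.703 for NCF1 in RS4;11 minus SEM (adjusted p = 0.017). The CYBA difference after MI-2-2 and the 3 differences after EPZ004777 lost their calls when either SEM DMSO array was left out. The second NCF1 probe set kept its calls for both NCF1 differences after EPZ004777 under all 37 alternatives. The actin covariate was not among the alternatives for differences between lines. RNA quality cannot be told apart from the combination and MI-2-2 in SEM. With DMSO the CYBB lead lay near the filter in RS4;11 and SEM but not in REH, so its changes start from unlike levels. No group has more than 3 arrays, so single values within a group were not tested as outliers, and the arrays named as standing apart were named from correlations over whole arrays.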

How the results depend on the processing

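Counts of oxidase probe sets called were the same within 1.5 times under most alternatives, and the exceptions follow; the cause was not tested. In RS4;11 after EPZ004777 (1 called) the count was 0 without the filter, 0 with the replicate block, 0 with the actin covariate and 2 with array weights. In SEM it was 0 after EPZ004777 (2) without the filter, with the replicate block and with the actin covariate, and after MI-2-2 (6) it was 2, 1 and 0 in the same order; after the combination (6) it was 0 with the actin covariate. In REH it was 3 after EPZ004777 (1) in the fit shared by the 44 human arrays, and 0 after the combination (1) without the filter, with the replicate block, the actin covariate or array weights, or without DMSO replicates 1 and 3. In MOLM-13 it was 5 after MI-2-2 (2) with array weights and 6 after the combination (10) with the actin covariate. In the mouse cells it was 1 after EPZ004777 (2) with the replicate block, and after MI-2-2 (1) it was 2 with repeated quantile normalization, 2 with the actin covariate and 4 without combination replicates 2 and 3. Leaving out each array in turn gave 0 to 1 after EPZ004777, 2 to 3 after MI-2-2 and 3 to 3 after the combination in RS4;11. In SEM the ranges were 0 to 2, 1 to 5 and 5 to 6, in REH 1 to 3, 0 to 1 and 0 to 1, in MOLM-13 2 to 3, 2 to 4 and 7 to 11, and in the mouse cells 1 to 3, 0 to 3 and 10 to 10, each for EPZ004777, MI-2-2 and the combination. They were 41 to 47 for the combination against the single compounds in all models (46), 8 to 11 for departures from the sum (9), 13 to 17 for DMSO levels (15) and 20 to 33 for differences between lines (26). Signs turned mainly by the choice of probe set. By the highest probe set of each gene, CYBB (203923_s_at) after the combination was -0.368 in RS4;11, and in SEM CYBB gave -0.928 after the combination, -0.309 after MI-2-2, -0.817 against EPZ004777, -0.619 against MI-2-2 and -0.507 against the sum; in REH CYBB (233538_s_at) after EPZ004777 became 0.611, and in MOLM-13 CYBB (217431_x_at and 233538_s_at) against the sum became -0.776. By the mean of its probe sets CYBB (233538_s_at) in SEM became 0.949 after the combination, 1.043 against EPZ004777, 0.863 against MI-2-2 and 0.957 against the sum. With the actin covariate NCF1 (204961_s_at) in SEM became 0.188 after MI-2-2 and 0.17 for the combination minus EPZ004777. Samples with the same replicate number did not deviate together (median correlation of deviations between -0.163 in SEM and 0.045 in the mouse cells, range -0.512 to 0.489), so the numbers were not read as pairs; the replicate block ended 23 calls, made 2 and kept 404 other results. Settings with 1 value per gene give no count of probe sets, and array weights were not used for the mouse cells, where they ran from 0.029 to 11.4. Leaving out the MOLM-13 arrays, leaving out REH DMSO replicates 1 and 3 in the fits across lines, and the likeness over 12 groups were chosen after seeing the data. Depth has no meaning for arrays; probe sets near percentile 40, such as CYBB with DMSO in RS4;11 and SEM, lie close to the filter.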
